A study of Mus musculus with 4 samples.

Results

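Inflammasomes are cytosolic complexes that macrophages assemble when they sense bacteria or damage. NAIP proteins bind bacterial flagellin or parts of the type III secretion system and engage NLRC4, whereas NLRP3 responds to a wide range of membrane and ionic disturbances. NLRP3 recruits the adaptor ASC (gene Pycard), which activates the protease caspase-1 (Casp1), while caspase-11 (Casp4) is itself activated by cytosolic lipopolysaccharide, and both caspases cleave gasdermin D (Gsdmd), which forms pores in the plasma membrane. SMAD4 binding was examined around 10 mouse genes of this system, Naip1, Naip2, Naip5, Naip6, Nlrc4, Nlrp3, Pycard, Casp1, Casp4 and Gsdmd, out of 20923 protein-coding genes of the curated RefSeq set.

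SMAD4, the common partner of the SMAD proteins that carry TGFβ signals into the nucleus, had been profiled by HT-ChIPmentation, in which Tn5 transposase tags immunoprecipitated chromatin on the beads. The cells were alveolar macrophages (AMs) of 9-week-old wild-type mice on the C57BL/6J background, taken by bronchoalveolar lavage and FACS, and the study asked where SMAD4 binds in them. There was 1 condition, with 2 SMAD4 libraries (replicates 1 and 2) and 2 input libraries that enter only through the control level of each peak. No knockout, treatment or other cell type was part of these libraries, so every value below describes untreated AMs. No source used here says whether the replicates came from separate animals.

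A peak was counted for a gene when its summit lay in the gene body or within 50 kb of a curated transcription start site (TSS) of the gene. Peaks of both replicates that overlapped by at least 1 bp formed a shared region, and a distance is that of the mean of both summits from the closest TSS of the gene, negative upstream. Fold enrichment is the peak caller's ratio of fragments stacked at the summit to the control level, each plus 1. Replicate 1 had 16369 peaks and replicate 2 had 19015, with 10964 shared regions. The median peak of each list stacked 17 and 14 fragments at its summit, and 87.2% of all shared regions had the higher fold in replicate 2 (median log2 ratio of replicate 2 to replicate 1, 0.47). The usual control level was 2.08 fragments in replicate 1 and 1.22 in replicate 2. At these levels, equal numbers of fragments give a higher fold in replicate 2. For the labelled cell type, listed genes were counted. A shared region for which theirs was the nearest TSS was found for 6 of 6 AM genes (Siglecf, Itgax, Pparg, Mrc1, Marco and Chil3). It was found for 2 of 7 genes of other lung cells (Scgb1a1 and Pecam1), where 21.5% of all protein-coding genes had one. The AM genes had 1 to 11 such regions, Scgb1a1 4 and Pecam1 2. The lists were chosen with earlier results of these data known, so these counts do not test the cell type.

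Of the 10 genes, 9 had at least 1 shared region in their window, where 39.1% of all protein-coding genes did, and 7 had a shared region for which theirs was the nearest TSS, where 21.5% of all genes did. The window held 22 peaks of replicate 1 and 27 of replicate 2, of which 21 and 20 were in 20 distinct shared regions. The strongest of these lay in intron 12 of Naip2 (fold 42.6 and 59.1 in replicates 1 and 2) and in intron 3 of Nlrp3 (26.6 and 45.6). Naip6 had no peak in either replicate, and Naip5 and Pycard had no shared region nearest to their own TSS. Since the windows of Casp1 and Casp4, and those of Naip2 and Naip5, overlap, 4 of the 20 regions lie in the windows of 2 genes, which gives 24 pairs of gene and region.

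The sequences below are those to which the results refer. They come from the GRCm38 (mm10) assembly, read 5′ to 3′ in the direction of the gene, and leave out bases in exons of any RefSeq transcript, save for the short Nlrp3 stretch, which lies in an exon of a predicted transcript. Each covers up to 100 bp either side of a summit. Capitals mark matches to consensus strings, on either strand, for CEBP (TTGCNNAA), the ETS family to which PU.1 belongs (AGGAAGT), AP-1 (TGAGTCA), RUNX (TGTGGT), NF-kB (GGGANTTCC), the E-box (CACGTG), nuclear receptors (AGGTCA) and the SMAD palindrome (GTCTAGAC). The short SMAD strings GTCTG and GGCGC were also searched but are not marked. The first 3 sequences show the marked strings at Nlrp3 and Nlrc4.
Nlrp3 intron 3, both CEBP strings (chr11:59543519-59543547, plus strand): TTGTGCAAccaacttctcatcTTGCACAA
Nlrp3, around -2976 bp (chr11:59538493-59538693, plus strand): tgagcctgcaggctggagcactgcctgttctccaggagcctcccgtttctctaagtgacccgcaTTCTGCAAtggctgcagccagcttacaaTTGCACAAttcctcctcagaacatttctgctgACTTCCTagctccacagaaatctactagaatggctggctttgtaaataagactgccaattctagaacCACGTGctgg
Nlrc4 promoter (chr17:74459145-74459241, minus strand): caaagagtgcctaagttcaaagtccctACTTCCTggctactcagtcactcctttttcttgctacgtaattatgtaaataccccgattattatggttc

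The next 2 show the Casp4 promoter region, in which the replicates placed their summits 377 bp apart, so that each summit has its own window.
Casp4, summit of replicate 1 (chr9:5308237-5308437, plus strand): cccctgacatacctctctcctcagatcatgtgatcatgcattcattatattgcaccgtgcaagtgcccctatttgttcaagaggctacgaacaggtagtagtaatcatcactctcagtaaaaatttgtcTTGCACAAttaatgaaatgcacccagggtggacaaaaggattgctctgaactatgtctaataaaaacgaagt
Casp4, summit of replicate 2 (chr9:5308614-5308814, plus strand): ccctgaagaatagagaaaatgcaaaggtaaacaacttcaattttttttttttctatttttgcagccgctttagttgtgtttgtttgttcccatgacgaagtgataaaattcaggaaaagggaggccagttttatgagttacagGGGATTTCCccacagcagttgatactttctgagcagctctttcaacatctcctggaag

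The next 4 show the region with the highest fold, the region upstream of Naip2, the member region with a SMAD palindrome, and the region in the Pycard window, which matched more of the 13 strings searched than any other of the 20.
Naip2 intron 12 (chr13:100152779-100152979, minus strand): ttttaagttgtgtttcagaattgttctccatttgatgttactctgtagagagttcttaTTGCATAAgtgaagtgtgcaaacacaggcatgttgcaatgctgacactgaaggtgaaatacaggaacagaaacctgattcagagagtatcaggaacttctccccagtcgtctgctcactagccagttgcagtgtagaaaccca
Naip2, around -1464 bp (chr13:100203486-100203686, minus strand): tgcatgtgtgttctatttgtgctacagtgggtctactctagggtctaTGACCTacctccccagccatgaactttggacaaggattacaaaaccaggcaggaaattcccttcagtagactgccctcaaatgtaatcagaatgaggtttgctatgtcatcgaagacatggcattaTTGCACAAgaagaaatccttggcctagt
Naip2 intron 11 (chr13:100156717-100156917, minus strand): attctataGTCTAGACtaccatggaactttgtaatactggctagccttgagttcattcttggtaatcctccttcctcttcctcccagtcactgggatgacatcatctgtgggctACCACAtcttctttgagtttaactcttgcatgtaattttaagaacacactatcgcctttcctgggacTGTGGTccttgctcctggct
Pycard window, around -31661 bp (chr7:128025428-128025628, minus strand): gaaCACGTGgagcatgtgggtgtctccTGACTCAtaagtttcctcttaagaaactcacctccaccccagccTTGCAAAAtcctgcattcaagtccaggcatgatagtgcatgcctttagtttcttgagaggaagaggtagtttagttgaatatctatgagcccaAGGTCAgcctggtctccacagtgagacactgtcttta

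**Figure D1:**
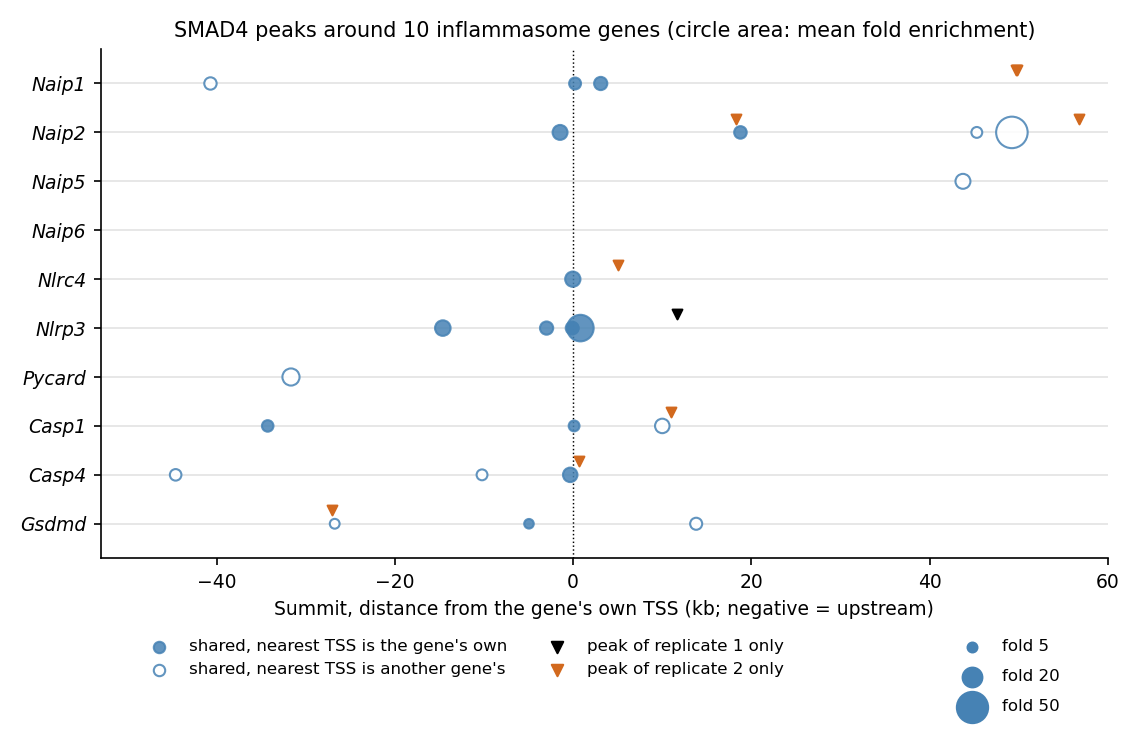
SMAD4 peaks by distance from the TSS of each gene (kb, negative upstream). Filled circles are shared regions nearest to the gene's own TSS, open circles those nearest to another TSS, and triangles peaks of a single replicate, with circle area proportional to the mean fold of both replicates. The largest circles are in Naip2 and Nlrp3, Nlrp3 has 5 filled circles, and the Naip6 row is empty.

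Among the NAIP sensors, all on chromosome 13, Naip2 had the most shared regions in its window. This window held 4, of which 2 were nearest to its own TSS. Naip2 spans chr13:100144063-100202122 on the minus strand. The region at -1464 bp (chr13:100203275-100203849, intergenic) had a fold of 7.80 in replicate 1 and 15.1 in replicate 2, from 23 and 35 fragments. The region in intron 5 (chr13:100183209-100183503, 18779 bp into the gene) had a fold of 4.87 and 11.3, from 14 and 24 fragments. Both were higher in replicate 2, by 0.95 and 1.21 on the log2 scale, more than the median of 0.47 over all shared regions. The intron 5 window held an AP-1 and a CEBP string and the SMAD string GTCTG, and the upstream window a CEBP and a nuclear receptor string.

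The other 2 regions of Naip2 lay deep in the gene and were nearest to the TSS of Smn1, the gene of the survival motor neuron protein. The region in intron 12 of 16 exons (chr13:100152339-100153443, 28024 bp from the Smn1 TSS and 49243 bp from that of Naip2) stacked 130 fragments in each replicate (95% exact Poisson interval 109 to 154). It ranked 9 of 10964 shared regions by fold in replicate 1 and 13 in replicate 2. Its summits were 6 bp apart, and its window held the CEBP string shown above and the SMAD string GTCTG. These libraries do not tell which promoter, if any, the region acts on. The weaker region in intron 11 (chr13:100156687-100157020) had a fold of 6.17 and 5.87, and its window held the palindrome GTCTAGAC, which 0.465% of all shared regions held. That string lay outside the window drawn around the replicate 2 summit alone, 130 bp from that of replicate 1. Replicate 2 alone had 2 further peaks in Naip2, in an exon at 18294 bp (fold 4.56) and in an intron at 56796 bp (fold 6.32).

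Naip1 (chr13:100407770-100452864, minus strand) is a sensor gene that the study itself names and so no independent choice. The study lists it with apoptosis-related genes that it assumes to be under direct RXR control. In its window, 2 shared regions were nearest to its TSS, both in intron 1. The region at 3098 bp (chr13:100449498-100450092) had a fold of 6.17 in replicate 1 and 11.7 in replicate 2, and its window held a CEBP and 2 RUNX strings. Its summits were 160 bp apart, and the window around the replicate 1 summit held neither string, but the SMAD string GTCTG. The region at 221 bp (chr13:100452452-100452789) had a fold of 5.52 and 9.02, from 16 and 19 fragments (overlapping intervals of 9.15 to 26.0 and 11.4 to 29.7), and its window held a nuclear receptor string. The remaining region in the Naip1 window, at -40697 bp, lay in the promoter of Gtf2h2, a subunit gene of the general transcription factor TFIIH, with a fold of 6.17 and 9.48.

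The Naip1 region at 221 bp has a near-identical copy beyond the 3′ end of the gene. Over 339 aligned positions the copy (chr13:100402955-100403292, 49741 bp from the Naip1 TSS) was 98.2% identical. The pair is shown because the windows differ at 2 positions only, marked here by capitals in place of the strings.
Naip1 intron 1, around 221 bp (chr13:100452543-100452743, minus strand): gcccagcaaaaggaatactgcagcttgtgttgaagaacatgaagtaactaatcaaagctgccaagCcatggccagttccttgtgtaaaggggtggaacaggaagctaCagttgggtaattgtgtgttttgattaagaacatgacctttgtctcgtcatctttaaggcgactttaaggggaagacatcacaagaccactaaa
Copy beyond the Naip1 gene (chr13:100403045-100403245, minus strand): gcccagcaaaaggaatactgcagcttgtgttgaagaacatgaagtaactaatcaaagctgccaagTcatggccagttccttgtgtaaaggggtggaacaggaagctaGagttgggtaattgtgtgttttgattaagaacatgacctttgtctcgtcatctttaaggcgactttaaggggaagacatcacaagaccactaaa
Replicate 2 had 2 peaks at this copy, at 49658 and 49866 bp, with folds of 6.77 and 4.96, and replicate 1 had none. Of the 50-base words of the intron 1 region, 50.5% occurred elsewhere in the genome, a share above 50% that 0.228% of all shared regions reached. Whether fragments of either place were assigned to the other was not tested. The Naip1 region at 3098 bp also had a copy in the same stretch (90.1% identical over 342 aligned positions, 57.5% of the region), and there a further shared region (chr13:100398642-100399125, 54035 bp from the TSS and outside the window) had a fold of 4.11 and 7.67. This further region was also nearest to the Naip1 TSS.

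Naip5 (chr13:100211739-100247336) and Naip6 (chr13:100281121-100316616), both on the minus strand, had no peak within 1 kb of their TSS in either replicate. The single region in the Naip5 window, 43750 bp from its TSS, was the one upstream of Naip2. The closest shared region to Naip6 was centred at -82213 bp, at the copy of Naip1 sequence just described. Naip5 and Naip6 also held the most repeated sequence of the 10 genes: 43.3% and 35.6% of their 50-base words occurred elsewhere in the genome, against 15.8% in Naip1, 12.3% in Naip2 and at most 6.69% in the other 6. The study kept only reads of high mapping quality, and the part of this filter in the lack of peaks was not tested.

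Related sequence in the NAIP cluster did not always have a peak. The intron 12 region of Naip2 had stretches of 86.6% to 87.2% identity upstream of Naip5, upstream of Naip6 and inside Naip1, each over at least 563 aligned positions, and neither replicate had a peak at any of them. These stretches covered the summit but only 50.3% to 50.8% of the region. Those upstream of Naip5 and Naip6 both aligned over 568 positions at 86.6% identity, and whether they are copies of each other was not examined. The intron 5 region of Naip2 was 95.6% identical to a stretch inside Naip1 and 91.6% identical to 1 upstream of Naip6, again without a peak in either replicate. The Naip1 region at 221 bp aligned, over 62.7% to 65.7% of its length, at 71.5% to 72.4% identity to stretches at 215 bp in Naip2, at 213 bp in Naip5 and at -871 bp from Naip6, and none of the 3 had a peak. Except for the region at 221 bp, at most 9.19% of the 50-base words of any of the 20 regions occurred elsewhere. Repeated words were not counted in the stretches without a peak. The part of the mapping quality filter in their lack of peaks was not tested.

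**Figure D2:**
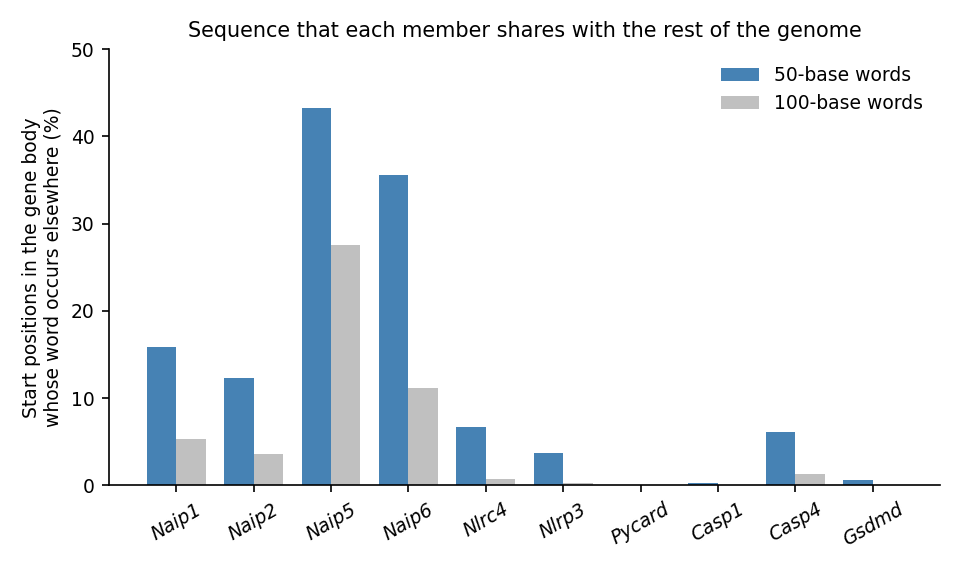
Share of start positions in each gene body (%) whose 50-base word (blue) or 100-base word (grey) occurs elsewhere in the genome on either strand. Naip5 (43.3% of 50-base words) and Naip6 (35.6%) stand above the other genes, and Pycard has no repeated word.

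Nlrc4, the adaptor that NAIPs activate, had 1 shared region, at its promoter (chr17:74458932-74459437, summit at -33 bp from the TSS of the minus-strand gene at chr17:74426295-74459108). Its fold was 8.12 in replicate 1 and 15.8 in replicate 2, from 24 fragments (interval 15.4 to 35.7) and 34 fragments (23.5 to 47.5), with summits 20 bp apart. The window held a CEBP string and 2 ETS strings, of which the CEBP string and 1 ETS string lie in exons of predicted transcripts and are not in the stretch shown. Replicate 2 had a further weak peak in the gene, at 5078 bp, with a fold of 4.19 from 9 fragments.

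Nlrp3 (chr11:59541569-59566955, plus strand), the sensor that also depends on transcriptional priming, had the most shared regions of the 10 genes. All 5 were nearest to an Nlrp3 TSS, and their summits spanned 16.6 kb. The annotation gives 2 curated TSSs, at positions 59541569 and 59542686. The region at -14621 bp (chr11:59526846-59527241) had a fold of 9.42 in replicate 1 and 15.3 in replicate 2, and its window held none of the strings. The region at -2976 bp (chr11:59538273-59538717) had a fold of 6.17 and 11.7, and its window held 2 CEBP strings, an ETS string and an E-box.

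The other 3 Nlrp3 regions lay within 1 kb of a TSS. At the upstream TSS, the region at -104 bp (chr11:59541242-59541757) had a fold of 8.45 and 8.57, and at the downstream TSS the region at 8 bp (chr11:59542340-59543047) had a fold of 5.56 and 6.31. The folds of these promoter regions differed little between the replicates, by 0.02 and 0.18 on the log2 scale. The fragments differed more: the region at -104 bp stacked 25 in replicate 1 and 18 in replicate 2, and that at 8 bp 22 and 17. The control level was higher in replicate 1 at both. Neither promoter window held a CEBP string, while both held the SMAD string GTCTG and that at 8 bp also a RUNX string. The region at 818 bp of the downstream TSS, in intron 3 of the 11-exon transcript (chr11:59543193-59543986), was the strongest, with a fold of 26.6 and 45.6.

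That intronic region stacked 81 fragments in replicate 1 (interval 64.3 to 101) and 100 in replicate 2 (81.4 to 122), so that its intervals did not overlap those of any other Nlrp3 region in the same replicate. It ranked 142 of 10964 by fold in replicate 1 and 79 in replicate 2. The summits were 16 bp apart, and the 2 CEBP strings shown above lie just downstream of them, in a stretch from 833 bp to 861 bp of the TSS. An E-box lay at 769 bp. A predicted RefSeq transcript, not part of the curated set, starts 89 bp upstream of the mean summit. Replicate 1 alone had a further peak at 11613 bp, with a fold of 5.52 from 16 fragments.

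**Figure D3:**
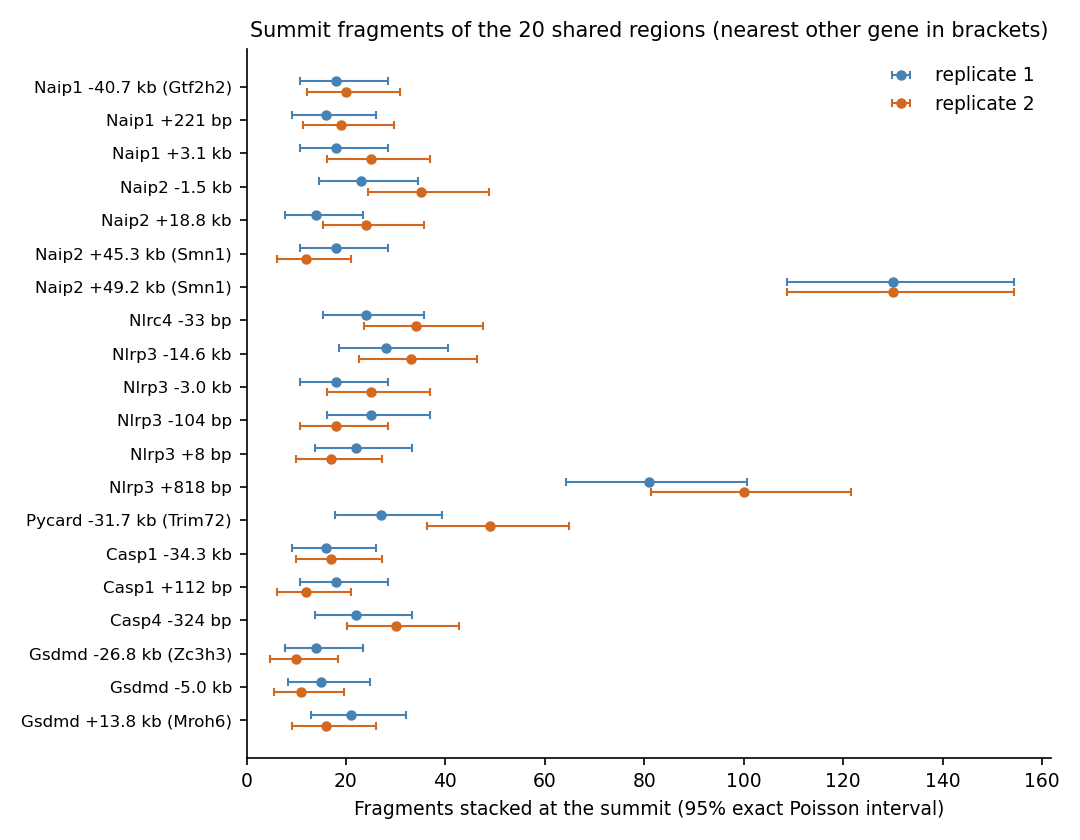
Fragments stacked at the summit of each of the 20 shared regions in replicate 1 (blue) and replicate 2 (orange), with 95% exact Poisson intervals that cover counting error only. Rows give the gene, the distance from its TSS and, in brackets, the gene of the nearest TSS where it is another. The Naip2 region at 49243 bp (130 and 130 fragments) and the Nlrp3 region at 818 bp (81 and 100) lie to the right of all others.

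Pycard (chr7:127991373-127993867, minus strand), which encodes the adaptor between sensor and caspase-1, had no peak at its promoter or in its body in either replicate. The only region in its window, at -31661 bp (chr7:128025296-128025879), was nearer to the TSS of Trim72, at 21150 bp. Its fold was 9.10 in replicate 1 and 20.9 in replicate 2, from 27 and 49 fragments, the highest fold outside the Naip2 and Nlrp3 introns in replicate 2. The window held CEBP, AP-1, E-box and nuclear receptor strings. The summits were 105 bp apart, and the AP-1 string and the E-box fell within 100 bp of the replicate 2 summit only.

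The inflammatory caspase genes are neighbors on chromosome 9. Casp1 (chr9:5298517-5307281, plus strand) had a region in its exon 1, at 112 bp (chr9:5298517-5298761), with a fold of 6.17 in replicate 1 and 5.87 in replicate 2, from 18 and 12 fragments. This was among the 3 of the 20 regions with the lower fold in replicate 2. Its window held a RUNX and an IRF (GAAANNGAA) string and the SMAD string GTCTG. A distal region at -34273 bp (chr9:5264160-5264442) had a fold of 5.52 and 8.12 and held a RUNX string.

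For Casp4 the study itself reported matching peaks of the transcription factors STAT5, SMAD4, RBPJ and RXRα, so the gene is no independent choice. Casp4 (chr9:5308849-5336791, plus strand) had a region across its promoter (chr9:5308073-5308881, 809 bp wide). The fold was 7.47 in replicate 1, from 22 fragments (interval 13.8 to 33.3), and 14.0 in replicate 2, from 30 fragments (20.2 to 42.8). The summits differed in place: replicate 1 had its summit at -512 bp and replicate 2 at -135 bp. The replicate 1 window held a CEBP string at -479 bp, and the replicate 2 window, shown above, an NF-kB string at -88 bp. Around the replicate 2 summits, NF-kB strings were found in 1.06% of all shared regions. Replicate 2 alone had a further peak at 631 bp, in an intron of Casp4, with a fold of 5.41 from 11 fragments.

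Gsdmd (chr15:75862339-75867404, plus strand), the pore-forming effector, had weak binding. The region nearest to its TSS, at -4952 bp (chr15:75857241-75857570), had a fold of 5.20 in replicate 1 and 4.21 in replicate 2, the lowest replicate 2 fold of the 20 regions. It stood on 15 fragments (interval 8.40 to 24.7) and 11 fragments (5.49 to 19.7), its summits were 159 bp apart, and the window around their mean held none of the strings, while that around the replicate 2 summit held a nuclear receptor string. The other 2 regions in the window were nearest to Zc3h3 (fold 4.87 and 4.96) and to Mroh6 (7.15 and 7.67), and replicate 2 alone had a peak in the same Zc3h3 intron (5.87).

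Within 1 kb of a TSS, a limit set after these values had been seen, 5 of the 10 genes had a shared region (Casp1, Casp4, Naip1, Nlrc4 and Nlrp3), where 3.95% of all protein-coding genes did. In the gene body, 4 of the 10 had a shared region (Casp1, Naip1, Naip2 and Nlrp3), where 14.1% of all genes did. By annotation, 5 of the 20 regions were at promoters, 7 in introns, 7 in intergenic sequence and 1 in an exon. Of these 20, the 14 nearest to a TSS of the 10 genes divided into 4, 4, 5 and 1.

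Over all 20 regions, the median fold was 6.17 in replicate 1 and 10.4 in replicate 2, beside 6.82 and 9.48 over all shared regions, and 9 and 10 of the 20 exceeded these medians. The fold was higher in replicate 2 in 17 of 20 regions, beside 87.2% of all shared regions. The median log2 ratio was 0.66 (0.47 over all shared regions), with a range from -0.31 (Gsdmd) to 1.21 (Naip2 intron 5). A higher fold in replicate 2 did not always mean more fragments, as the control level was lower there. The Naip2 intron 12 region had 130 fragments in each replicate and a log2 ratio of 0.47. Some of the 17 stacked fewer fragments in replicate 2, as at both Nlrp3 promoters, and others stacked more. The 7 unshared peaks of replicate 2 had folds between 4.19 and 6.77, from 9 to 14 fragments.

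**Figure D4:**
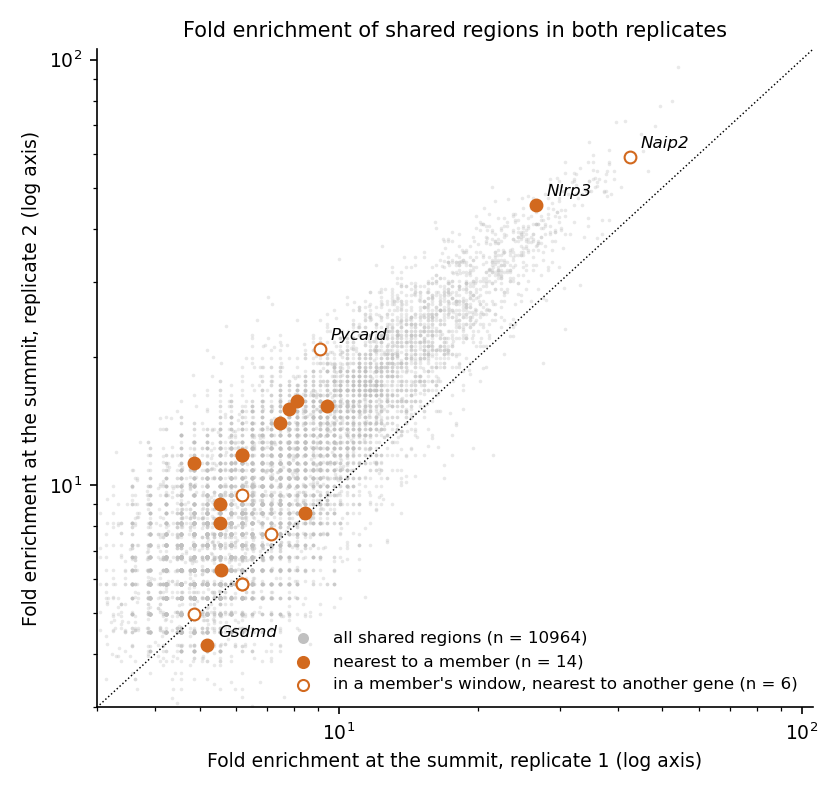
Fold enrichment at the summit in replicate 1 and replicate 2, both on log axes, for all 10964 shared regions (grey) and the 20 regions in the windows of the 10 genes. Of these 20, the 14 nearest to one of the 10 genes are filled and the 6 nearest to another gene are open. The dotted line marks equal folds. At the usual control levels, equal numbers of fragments also give a point above it. Of the 20 regions, 17 lie above the line, and those in Naip2 intron 12 and Nlrp3 intron 3 lie among the strongest of all. Some points coincide.

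Within 100 bp of the mean summit, CEBP strings were the most frequent of the 13 strings. They were held by 11 of the 20 windows (55.0%), where 40.9% of all shared regions held them. Over whole shared regions, RUNX strings and the SMAD string GTCTG were each in 13 of the 20 (42.7% and 64.7% of all). CEBP strings were there in 11 (51.6% of all). RUNX strings were held by 7 windows (35.0% against 26.4%), and the short SMAD string GTCTG also by 7 (35.0% against 38.8%). E-boxes were held by 3 windows (15.0% against 3.65%), those at -2976 bp and 818 bp of Nlrp3 and that of the Pycard window. Within 50 bp of the mean summit, however, 0 of the 20 windows held an E-box (1.73% of all shared regions), and around the summits of either replicate 2 of the 20 did. ETS strings were held by 3 windows (15.0% against 20.4%). Nuclear receptor strings were held by 3 windows (15.0% against 15.4%) and AP-1 strings by 2 (10% against 8.91%). The longer PU.1 string (GAGGAAGT), which contains the ETS string, the IRF string, the SMAD palindrome and the SMAD string GGCGC were each held by 1 window (5.0%), where 8.0%, 8.66%, 0.465% and 5.24% of all shared regions held them. No window around a mean summit held a STAT5 string (TTCNNNGAA) or an NF-kB string, which 8.06% and 1.03% of all shared regions held. With 20 windows each one adds 5.0 percentage points, so these shares are coarse, and a match does not show that a factor is bound.

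**Figure D5:**
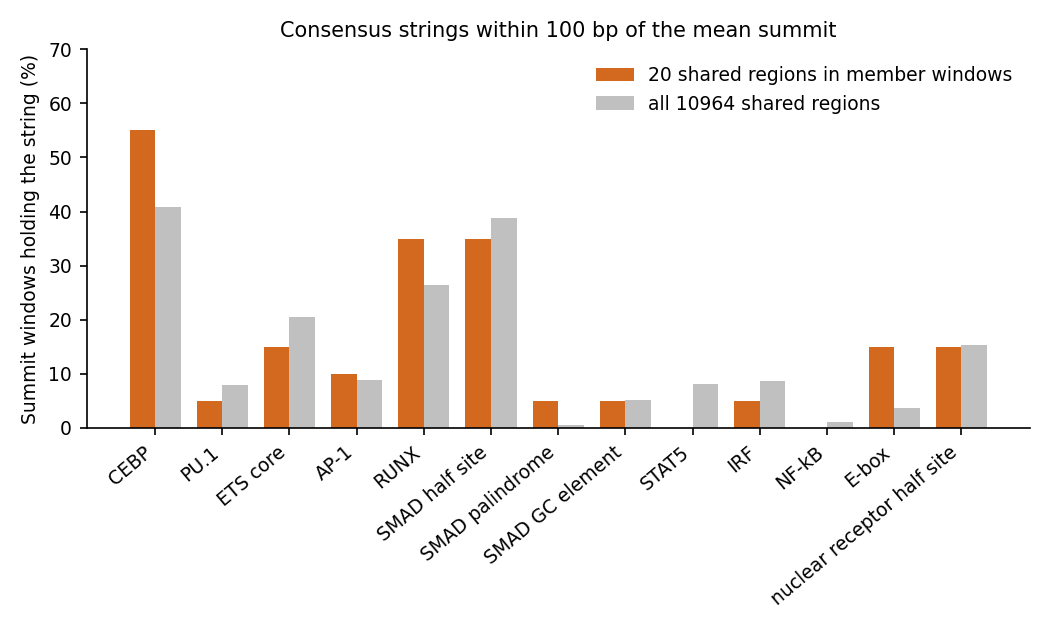
Share of windows of 100 bp either side of the mean summit (%) that hold each of 13 consensus strings, for the 20 shared regions (orange) and all 10964 shared regions (grey). CEBP strings are the most frequent in both sets (55.0% and 40.9%), and E-boxes are in 15.0% and 3.65%, though in none of the 20 within 50 bp of the mean summit.

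Other genes of the pathway were also listed. Of 20 further inflammasome genes, 16 had a shared region in their window (39.1% of all protein-coding genes), 13 had a region nearest to their own TSS (21.5% of all) and 4 had a region within 1 kb (3.95% of all), namely Aim2, Gbp2, Il1a and Il1rn. The strongest regions given next are those among the regions nearest to the gene's own TSS. The cytokine gene Il1a, whose product is released through gasdermin pores and from dying cells, had 6 regions in its window, the strongest at -4108 bp with a fold of 13.3 in replicate 1 and 23.0 in replicate 2. For Il1b, the cytokine that caspase-1 matures, the strongest region lay at -39463 bp (11.9 and 21.8), and for Il1rn, the antagonist of the same receptor, at -18744 bp (17.4 and 14.8). The strongest region of Aim2, the sensor of cytosolic DNA, lay at 6950 bp (7.15 and 10.4), and that of Gbp5, an interferon-induced GTPase, at -18369 bp (12.3 and 15.3). Nlrp6, Nek7, Txnip and P2rx7 had no shared region in their windows. The count of genes with a region nearest to their own TSS has no distance limit. It therefore includes Nek7, whose region lay at 154127 bp (3.57 and 5.87).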

How the data were processed

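The authors trimmed reads of the SMAD4 and input libraries with Cutadapt, aligned them to mm10 with Bowtie2, removed duplicates with PICARD, kept well-mapped reads with samtools and called peaks per library with MACS3 against input at a q-value limit of 0.05. The deposited fold ratio, the deposited −log10 p-value and −log10 q-value at the summit, and the peak and summit positions were used as the authors gave them. The deposited score was not used. The pileup at each summit was solved from the fold, (pileup + 1)/(control + 1), and its Poisson p. For every peak a whole pileup gave the deposited −log10 p to within 0.01. The control level was within 0.02 fragments of its floor (2.08 and 1.22 fragments) at 79.5% and 81.0% of summits. Simulated pileups were recovered exactly in 100% of cases. Sequencing totals were not used. Intervals are exact Poisson, at 95%, and cover counting error only.

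Samples were grouped by their labels, and replicate numbers follow accession order. Gene models were 45657 curated RefSeq transcripts of GRCm38. A promoter ran from 1 kb upstream to 100 bp downstream of a TSS. All 10 genes were named, with every shared region nearest to their TSS and the strongest of each window. Genes and lists were chosen with earlier results of these data known. No test was run, as there was 1 condition. Strings were searched in windows of 201 bp, and copies with BLAST+ 2.17.0 (at least 150 aligned positions over the summit) and with exact words of 50 and 100 bases. Analyses used Python 3.11.15, numpy 2.4.6, pandas 2.3.3 and scipy 1.17.1. Alternatives were another window, overlap, q or fold limit, gene set, summit window and each replicate alone. Counts over the listed apoptotic caspase genes are not reported here.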

Additional observations from a re-analysis of the deposited data

How the results depend on the processing

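With the gene body alone as window, 4 genes had a shared region in place of 9, with 8 distinct regions, 10 replicate 1 peaks and 12 replicate 2 peaks. Under the other window, overlap, q, fold and gene-set alternatives, and with either replicate's list alone, these counts stayed within 1.5 times their value. The genes themselves changed in places. A window of 100 kb added Naip6, and a window of 10 kb removed Naip5 and Pycard. Requiring summits within 100 bp removed Pycard, and left Casp4 and Gsdmd without a region nearest to their TSS. A fold of at least 5, or a reciprocal overlap of 50%, did so for Gsdmd alone. The share of all protein-coding genes with a shared region in their window ranged from 14.1% to 54.9% over the alternatives, so that counts of windows cannot be read without it. Of 52 values for the strings, 9 left the binomial interval of the main share. Among them, the SMAD palindrome fell to 0 of the 20 windows within 50 bp of the mean summit. It also fell to 0 around replicate 2 summits, an alternative chosen after the data were seen. The SMAD string GTCTG moved from 35.0% to 15.0% within 50 bp (21.9% of all shared regions). Over whole shared regions it moved to 65.0% (64.7% of all), and RUNX from 35.0% to 65.0% (42.7% of all). Depth limits single regions: the median peak stood on 17 fragments in replicate 1 and 14 in replicate 2. No paired analysis was possible because only 1 group had files.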

Other observations

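Each strongest region named here is that among the regions nearest to the gene's own TSS. Casp6, an apoptotic caspase gene, had its strongest shared region at 3525 bp from its TSS (fold 6.50 in replicate 1 and 14.9 in replicate 2). For Casp8, the initiator caspase of death receptors, it lay at -2204 bp (4.55 and 6.77).

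Among other genes of the NLR family, Nod1, Nod2, Nlrc3, Nlrc5, Nlrx1 and Ciita, 6 of 6 had a shared region in the window (39.1% of all protein-coding genes), 3 had a region nearest to their TSS (21.5% of all) and none had a region within 1 kb (3.95% of all). Nod1, a sensor of bacterial peptidoglycan, had 4 regions, the strongest at 16660 bp (fold 7.47 and 8.57). Ciita, the regulator of MHC class II genes, had a region at 11113 bp (8.45 and 11.7), and the strongest region of Nod2 lay at 15149 bp (3.57 and 4.96).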
